A study of Mus musculus with 9 samples.

Results

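Regulatory T (Treg) cells can turn extracellular nucleotides into adenosine, and adenosine acts on T cells largely through cyclic AMP (cAMP). The genes described here cover that route: Entpd1 and Nt5e, which make adenosine, Ada, which removes it, Adora2a, its main T cell receptor, the cAMP phosphodiesterase genes Pde3b, Pde4b, Pde4d and Pde7a, and Prkar1a and Crem, which act downstream of cAMP. They are a list of 10 genes taken by exact gene symbol from 22180 genes with a named probe set. The platform annotation pairs 9 of the 10 with a probe set, and Adora2a is not analysed here. Levels were compared between Treg cells without the Hippo kinases Mst1 and Mst2 and wild-type Treg cells.

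Entpd1 encodes CD39, which trims ATP and ADP to AMP at the cell surface, and Nt5e encodes CD73, which converts AMP to adenosine. Ada encodes adenosine deaminase, which turns adenosine into inosine. The receptor encoded by Adora2a raises cAMP through adenylyl cyclase, cAMP frees the catalytic subunits of protein kinase A from regulatory subunits such as the product of Prkar1a, and the kinase acts on CREB family factors. Crem encodes activators and repressors of that family, and phosphodiesterases end the signal by breaking cAMP down. Treg cells of the mouse are known for carrying both CD39 and CD73.

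The Mst1/Mst2-KO samples (KO, n = 4) came from donors of genotype Foxp3YFP-CreStk4f/fStk3f/f, and the wild-type samples (WT, n = 5) from Foxp3YFP-Cre donors, so both groups carry YFP and Cre at the Foxp3 locus. In the KO donors the Foxp3 locus drives Cre, which places deletion of the loxP-flanked Stk4 (Mst1) and Stk3 (Mst2) in cells that express Foxp3. All samples are labelled C57BL/6 and were CD4+YFP+ cells bearing CD45.2 and not CD45.1, sorted 2 months after RAG1-/- hosts, which form no T or B cells of their own, received donor marrow mixed equally with WT CD45.1 marrow. The labels state neither age nor whether each sample is its own chimera or a pool. The p-values therefore cover only the sample-to-sample spread seen here, which may be technical. Each sample was hybridised to 1 microarray, and values are the deposited log2 RMA values, an array measure after background correction and quantile normalisation.

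Among the cell identity genes, Foxp3 averaged 10.72 ± 0.092 (SD, n = 4) in KO and 10.70 ± 0.049 (SD, n = 5) in WT samples, and Cd4 averaged 9.07 in KO and 9.25 in WT samples. A list of 8 markers held Foxp3, Il2ra, Ctla4 and Ikzf2, and the more general T cell genes Cd4, Cd3e, Cd3g and Cd5. Of the 8, 1 passed the test, where 2.32% of all genes did. It was Ikzf2, which encodes Helios and was lower in KO samples (difference -0.72). The mean level of the 8 ranged from 9.82 to 9.99 in KO and from 10.09 to 10.15 in WT arrays, without overlap. Gene by gene the groups did not overlap for 3, Ikzf2, Cd3e (-0.31) and Cd3g (-0.32), all lower in KO, against 4.4% of all genes. The other differences were 0.014 for Foxp3, 0.056 for Il2ra, -0.088 for Ctla4, -0.18 for Cd4 and 0.079 for Cd5. The Ikzf2 call ended without any 1 of 7 arrays (KO arrays 1 and 2 and each WT array, limma adjusted p from 0.0545 to 0.0908). Stk4 averaged 7.64 in KO and 7.91 in WT samples and did not pass (limma adjusted p = 0.146); its probe set is not known to lie in the deleted part, so it checks nothing. Arrays agreed less within the KO group (mean correlation with the rest of the group from 0.9866 to 0.9888) than within WT (from 0.9928 to 0.9936). KO array 4 correlated slightly better with the WT arrays (mean 0.9877) than with the other KO arrays (mean 0.9873). Every other array correlated better with its own group. In bulk samples, fewer cells of a type and less RNA per cell cannot be told apart.

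The promoters of genes on this route are shown where the values below turn on them or where they hold a sequence that CREB family factors are known to bind. RefSeq promoter sequences (build GRCm38.p6) matched 6 of the 10 genes by symbol, in 15 windows of 250 bases before an annotated start site. Pde3b, Pde7a, Crem and Adora2a were not matched, so their promoters were not searched. The letters searched, on both strands, were the cAMP response element (CRE) TGACGTCA, its half-site TGACG, the STAT pattern TTCNNNGAA and the TEAD pattern GGAATG. Each full CRE also counts as overlapping half-sites. Entpd1 and Nt5e are shown because both were lower in KO cells, and 1 window of Prkar1a because it holds the full CRE. Capitals mark matches.
Nt5e, chr9:88327359-88327608, plus strand: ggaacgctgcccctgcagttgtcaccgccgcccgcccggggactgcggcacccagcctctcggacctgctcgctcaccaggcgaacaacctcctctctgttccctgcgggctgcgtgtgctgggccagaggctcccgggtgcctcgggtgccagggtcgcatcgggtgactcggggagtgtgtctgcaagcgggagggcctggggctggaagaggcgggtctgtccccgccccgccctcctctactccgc
Entpd1, first start site, chr19:40612116-40612365, plus strand: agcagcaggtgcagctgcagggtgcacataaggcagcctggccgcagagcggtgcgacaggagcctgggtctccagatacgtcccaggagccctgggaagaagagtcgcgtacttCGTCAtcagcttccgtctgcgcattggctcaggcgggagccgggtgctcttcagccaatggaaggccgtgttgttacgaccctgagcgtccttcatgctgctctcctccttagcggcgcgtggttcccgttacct
Entpd1, second start site, chr19:40659520-40659769, plus strand: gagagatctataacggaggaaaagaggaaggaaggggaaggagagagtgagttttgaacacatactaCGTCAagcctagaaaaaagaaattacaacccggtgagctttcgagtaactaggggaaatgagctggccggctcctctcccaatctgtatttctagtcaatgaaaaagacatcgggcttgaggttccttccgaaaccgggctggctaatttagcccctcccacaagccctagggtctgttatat
Prkar1a, chr11:109650699-109650948, plus strand: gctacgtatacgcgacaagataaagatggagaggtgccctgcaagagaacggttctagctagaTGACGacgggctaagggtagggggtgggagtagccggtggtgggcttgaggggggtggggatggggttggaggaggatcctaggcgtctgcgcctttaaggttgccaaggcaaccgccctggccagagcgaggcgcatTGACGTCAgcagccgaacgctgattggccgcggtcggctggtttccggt

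Both Entpd1 windows hold 1 half-site each, and the Nt5e window holds none of the letters searched. The Prkar1a window holds the full CRE with its first base 49 bases before the start site. The half-site was found in 6 of the 15 windows (1 of Pde4b, 2 of Entpd1 and 3 of Prkar1a, of which 2 overlap), and 17.8% of all 32851 windows of the same length hold it. The full CRE was found in 1 of the 15 windows and in 1.55% of all windows. The STAT pattern was found in 2 of the 15 (Ada and 1 window of Pde4b) against 7.02% of all windows, and the TEAD pattern in 1, of Prkar1a, against 12.6%. These matches describe the letters and do not show binding.

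The adenosine-making pair was lower in KO cells, the phosphodiesterase gene Pde3b was higher, and the other 6 measured genes did not pass the test. The test was limma's moderated test, two-sided, with p-values adjusted by Benjamini and Hochberg's method across the 22180 genes and called below 0.05. By that rule 2 of the 9 measured genes were lower, where 1.89% of all genes were, and 1 was higher, where 0.428% of all genes were. The groups did not overlap for 4 of the 9 (3 lower and 1 higher in KO), against 6.16% of all genes (4.4% lower and 1.76% higher). Over all genes 515 passed, 18.4% of them higher in KO, and after a further quantile normalisation 35.7% of the calls were higher. The median difference of the 9, KO minus WT, was -0.045 log2 units, and that of all genes was 0.0023. The list was drawn up with earlier results of these data known, so these shares describe it and are not evidence of their own.

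**Figure D1:**
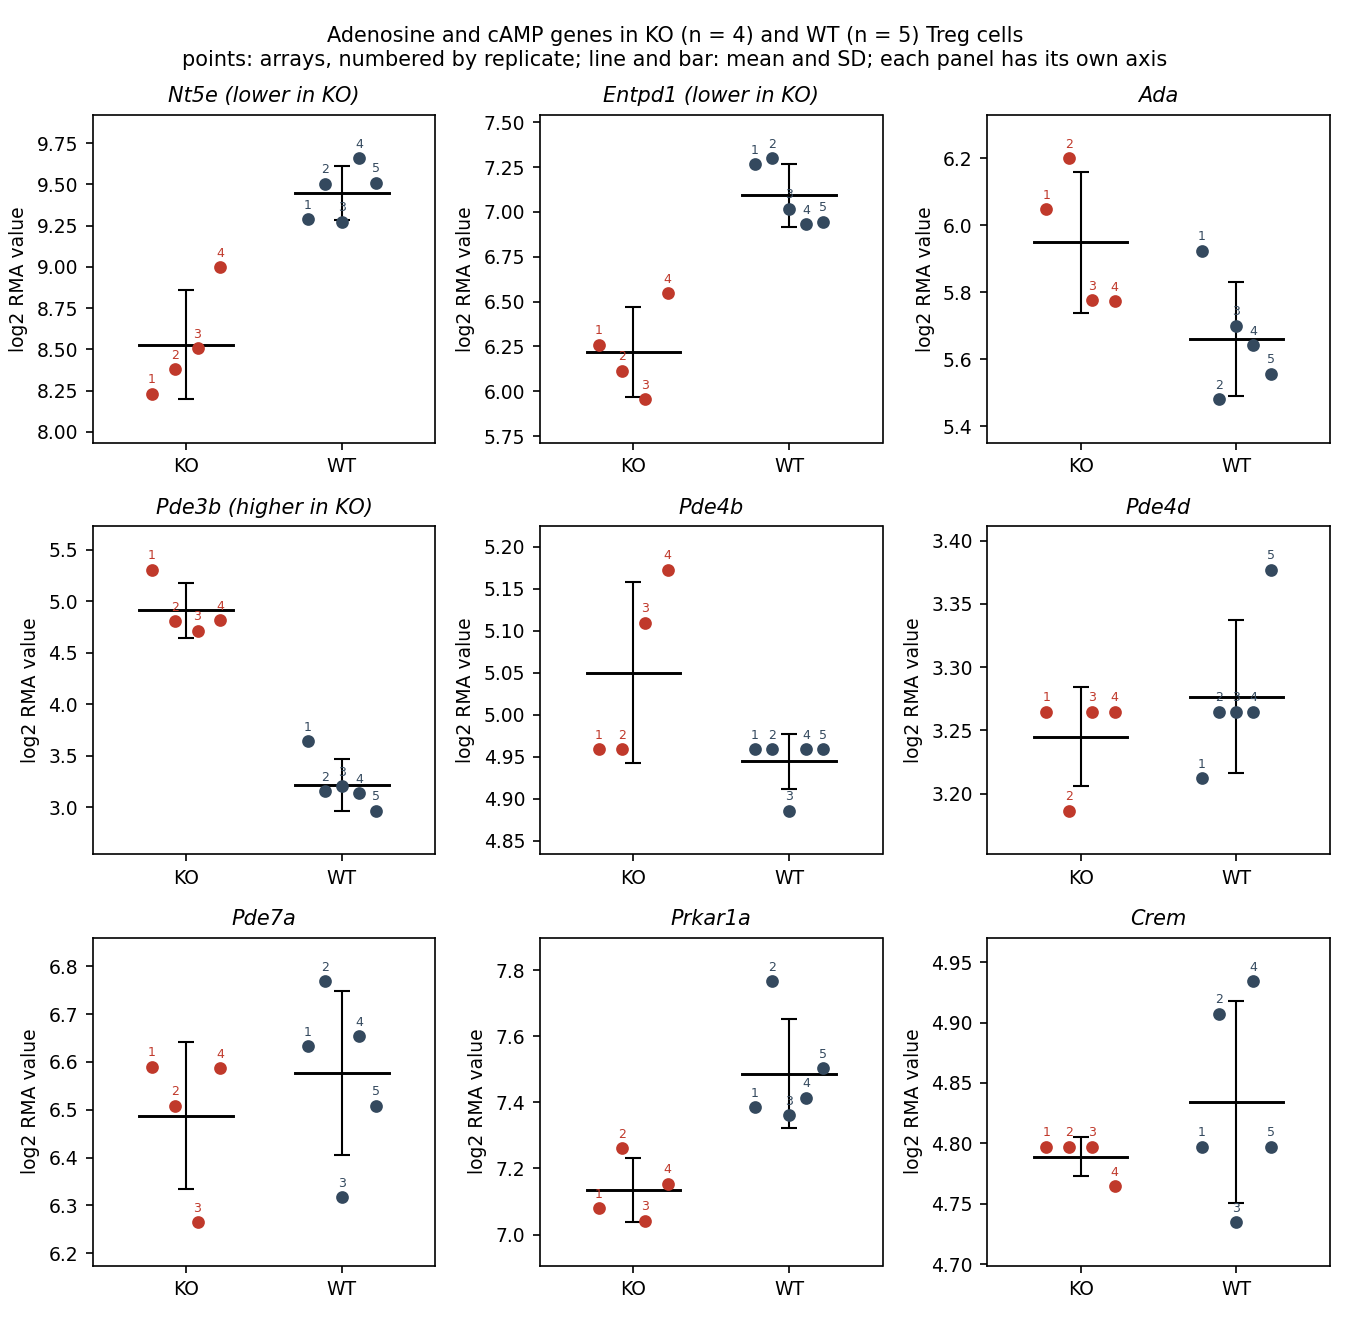
Deposited log2 RMA values of the 9 measured genes of adenosine production and cAMP breakdown, 1 panel per gene with its own axis, KO arrays (n = 4, red) left and WT arrays (n = 5, dark) right. Points are arrays with their replicate number, the horizontal line is the mean and the bar the SD. Nt5e, Entpd1, Pde3b and Prkar1a show no overlap between the groups.

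Entpd1, the first step of adenosine production, was 6.26, 6.11, 5.95 and 6.55 in KO arrays 1 to 4, against 7.27, 7.30, 7.02, 6.93 and 6.94 in WT arrays 1 to 5. All KO values lay below all WT values, and KO array 4 came closest to WT. The mean was 6.22 ± 0.25 (SD, n = 4) in KO and 7.09 ± 0.18 (SD, n = 5) in WT samples. The difference was -0.87 ± 0.13 (SE), or 1.83-fold lower in KO (95% interval from -1.16 to -0.59, limma adjusted p = 0.00759).

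Nt5e, the second step, was 8.23, 8.38, 8.51 and 9.00 in KO arrays 1 to 4, against 9.29, 9.50, 9.27, 9.66 and 9.51 in WT arrays 1 to 5. Again no KO array reached the lowest WT array, and KO array 4 was the highest of its group. The mean was 8.53 ± 0.33 (SD, n = 4) in KO and 9.45 ± 0.16 (SD, n = 5) in WT samples. The difference was -0.92 ± 0.15 (SE), or 1.89-fold lower in KO (95% interval from -1.24 to -0.59, limma adjusted p = 0.0115). Without KO array 4 the difference was -1.08 for Nt5e (limma adjusted p = 0.00176) and -0.98 for Entpd1 (limma adjusted p = 0.00343). KO array 4 lies nearest to WT for both genes, so leaving it out can only enlarge these differences.

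Ada, on the removing side, was 6.05, 6.20, 5.78 and 5.77 in KO arrays 1 to 4, against 5.92, 5.48, 5.70, 5.64 and 5.56 in WT arrays 1 to 5. The groups overlapped through WT array 1, which lay above KO arrays 3 and 4. The difference of 0.29 ± 0.11 (SE) did not pass (95% interval from 0.033 to 0.54, limma adjusted p = 0.262). The interval, which is not adjusted for the number of genes, lies above 0 and reaches 0.54 log2 units.

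Pde3b was higher in KO cells. It encodes a phosphodiesterase that breaks down cAMP and is inhibited by cGMP. Its values were 5.31, 4.81, 4.72 and 4.82 in KO arrays 1 to 4, against 3.64, 3.16, 3.21, 3.13 and 2.97 in WT arrays 1 to 5. The lowest KO array lay above the highest WT array. The mean was 4.91 ± 0.27 (SD, n = 4) in KO and 3.22 ± 0.25 (SD, n = 5) in WT samples, a difference of 1.69 ± 0.15 (SE, 95% interval from 1.36 to 2.03, limma adjusted p = 0.000643). The WT mean lies below 4.04, the median of all probe set values, a range where signal and background could not be separated here. No fold is stated for it, and the size of the log2 difference carries the same limit.

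Pde7a, which encodes a cAMP-specific phosphodiesterase, has 2 probe sets. The brighter was 6.59, 6.51, 6.26 and 6.59 in KO arrays, against 6.63, 6.77, 6.32, 6.65 and 6.51 in WT arrays. KO and WT values were interleaved (difference -0.089, 95% interval from -0.32 to 0.14, limma adjusted p = 0.765). The second probe set ranged from 4.46 to 5.04 in KO and from 4.61 to 5.25 in WT arrays, with a difference of -0.13 (limma adjusted p = 0.806 over all probe sets). A change of the size of that in Pde3b lies outside both intervals.

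Pde4b and Pde4d encode members of the cAMP-specific phosphodiesterase family that regulates T cell receptor signalling. Pde4b was 4.96, 4.96, 5.11 and 5.17 in KO arrays, against 4.96, 4.96, 4.89, 4.96 and 4.96 in WT arrays. Pde4d lay from 3.19 to 3.26 in KO and from 3.21 to 3.38 in WT arrays. For each of them 6 of the 9 arrays hold exactly the same deposited value. The same holds for 5 arrays in Crem, and 6.23% of all genes have 5 or more arrays with 1 identical value. Such a value carries little information on differences between arrays, and both Pde4d means lie below the median of all probe sets. Neither gene passed (difference 0.11, limma adjusted p = 0.506, for Pde4b, and -0.032, limma adjusted p = 0.858, for Pde4d).

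Prkar1a, which encodes the type I alpha regulatory subunit of protein kinase A, was 7.08, 7.26, 7.04 and 7.15 in KO arrays, against 7.39, 7.77, 7.36, 7.41 and 7.50 in WT arrays. Each KO value lay below each WT value. The difference of -0.35 ± 0.092 (SE) nevertheless did not pass over all genes (95% interval from -0.56 to -0.15, limma adjusted p = 0.0844). Crem ranged from 4.76 to 4.80 in KO and from 4.73 to 4.93 in WT arrays, with a difference of -0.045 (95% interval from -0.18 to 0.089, limma adjusted p = 0.802). The Crem probe set summarises the gene as a whole, so its activator and repressor products were not measured apart.

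**Figure D2:**
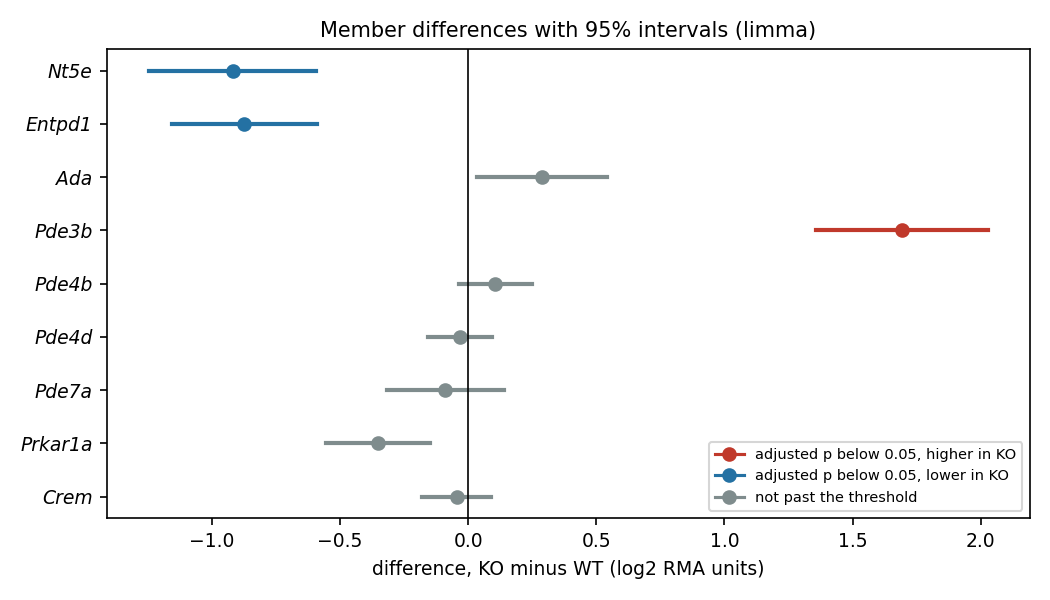
Difference in log2 RMA value, KO minus WT, for each of the 9 measured genes (point) with its 95% interval from limma (line). Nt5e (-0.92) and Entpd1 (-0.87) lie to the left of 0 and Pde3b (1.69) to the right, and the grey intervals belong to genes that did not pass the threshold.

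The rest of the pathway was read from 12 further lists, of which 108 of 122 genes were measured. In the same fit 14.9% of all genes had an unadjusted p below 0.05 (3296 of 22180), against which the counts at that level below can be read. In the 12 lists, 6 genes passed (2 higher and 4 lower in KO), or 5.56%, where 2.32% of all genes passed, and their median difference of 0.0023 was that of all genes. The calls fell in 5 of the 12 lists, and in each list most measured genes did not pass. By limma 25 of the 108 had an unadjusted p below 0.05, as had 5 of the 9 measured members. In the lists with a call these were 3 of 7 genes of nucleotide breakdown and 6 of 12 receptor and G protein genes. They were also 2 of 9 cyclases, 2 of 12 other phosphodiesterases and 3 of 9 CREB family factors and coactivators.

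At the cell surface, 7 of 12 listed genes of extracellular nucleotide breakdown were measured, and 1 rose and 1 fell. Alpl, which encodes an alkaline phosphatase that can also dephosphorylate AMP, was 5.15, 4.73, 4.91 and 4.63 in KO arrays, against 4.24, 4.04, 4.03, 4.20 and 4.18 in WT arrays. The groups did not overlap, and the difference was 0.72 ± 0.10 (SE), which passed (limma adjusted p = 0.00759). Its other probe set differed by 0.24 and did not pass (limma adjusted p = 0.211 over all probe sets). P2rx7, a channel opened by extracellular ATP and not an enzyme of its breakdown, ranged from 8.04 to 8.20 in KO and from 8.37 to 8.57 in WT arrays (difference -0.37, limma adjusted p = 0.0182). The P2rx7 call ended without KO array 1 or 3 or WT array 2 or 4 (limma adjusted p from 0.0513 to 0.0558), and after quantile normalisation (difference -0.30, limma adjusted p = 0.0617). None of 14 genes of adenosine removal, transport and salvage passed by limma (4 had an unadjusted p below 0.05, against 14.9% of all genes). Those with the smallest p were Dpp4 (difference -0.25, limma adjusted p = 0.218), whose product binds adenosine deaminase in humans, and Ahcy (-0.55, limma adjusted p = 0.261), which releases adenosine from S-adenosylhomocysteine. Without KO array 2 the Ahcy difference was -0.79 and passed (limma adjusted p = 0.0253). A dimmer probe set of Ahcy differed in the other direction, by 0.27, and did not pass (limma adjusted p = 0.704 over all probe sets).

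Receptors and cyclases that raise cAMP held a fall and a rise. Ptger2, the prostaglandin E2 receptor EP2, was 5.86, 6.09, 6.13 and 6.15 in KO arrays, against 6.75, 7.37, 6.85, 7.10 and 7.01 in WT arrays. The groups were clearly apart, with a difference of -0.96 ± 0.12 (SE), or 1.94-fold lower in KO (limma adjusted p = 0.00362), the 1 call among 12 receptor and G protein genes. Of 3 listed adenosine receptors other than Adora2a, Adora3 was measured, with both means below the median of all probe sets (difference 0.089, limma adjusted p = 0.75). Adcy6, an adenylyl cyclase, was 5.82, 5.87, 5.56 and 4.81 in KO arrays, against 4.81, 4.11, 4.73, 4.16 and 4.36 in WT arrays. KO array 4 and WT array 1 share their value, and the other KO arrays lay above all WT arrays. The difference was 1.08 ± 0.23 (SE, limma adjusted p = 0.037), the 1 call among 9 cyclases, and it ended without any 1 of KO arrays 1 to 3 or WT arrays 2 to 5 (limma adjusted p from 0.0572 to 0.108).

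On the side of cAMP breakdown, 1 of 12 other phosphodiesterase genes changed. Pde2a, whose product is stimulated by cGMP and degrades cAMP, was 5.57, 5.81, 5.48 and 6.50 in KO arrays, against 6.65, 7.19, 7.06, 6.88 and 6.51 in WT arrays. KO array 4 lay just under the lowest WT array and well above the other KO arrays. The difference was -1.02 ± 0.21 (SE), or 2.02-fold lower in KO (limma adjusted p = 0.0345), opposite in sign to that of Pde3b. This call ended without any 1 of KO arrays 1 to 3 or WT arrays 1 to 4 (limma adjusted p from 0.0639 to 0.103). A further list held 8 genes of the cGMP phosphodiesterase families, including subunits that are not catalytic. None of the 8 passed by limma (1 at an unadjusted p below 0.05). The smallest p belonged to 2 genes of that kind, Pde6d (difference -0.27, limma adjusted p = 0.134) and Pde6g (0.14, limma adjusted p = 0.523).

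**Figure D3:**
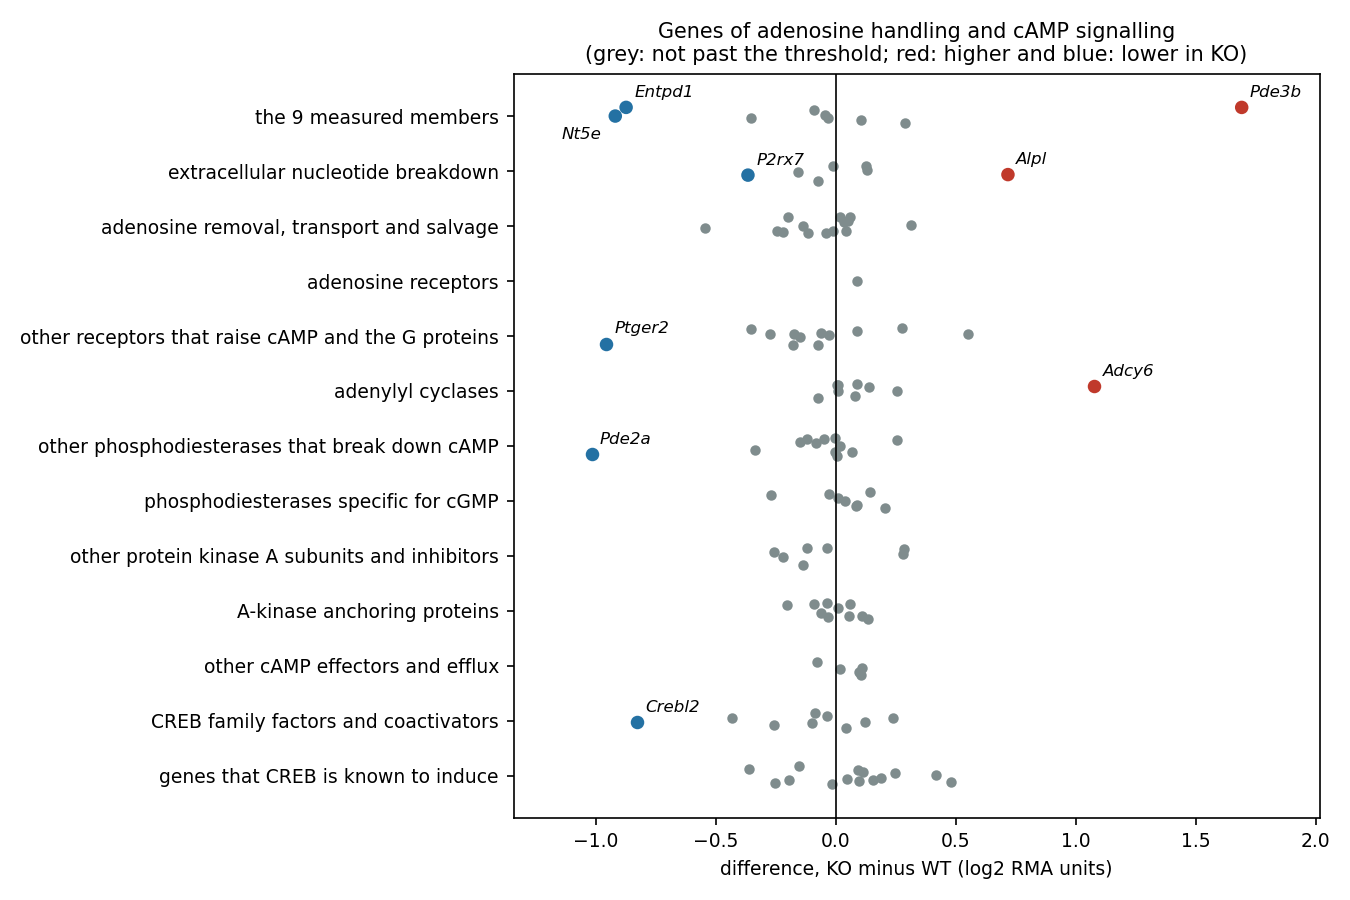
Difference in log2 RMA value, KO minus WT, of each measured gene (point) in the 13 lists of the pathway, the 9 measured members on top. Coloured and named points passed the limma threshold (red higher, blue lower in KO), and vertical scatter within a list has no meaning. The 6 named genes outside the members are Alpl, P2rx7, Ptger2, Adcy6, Pde2a and Crebl2.

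Downstream of cAMP, Crebl2, which encodes a small CREB-like basic leucine zipper protein, was the 1 call among 9 CREB family factors and coactivators. It was 6.73, 6.83, 6.93 and 7.39 in KO arrays, against 7.63, 7.94, 7.66, 7.82 and 7.95 in WT arrays, with no overlap. The difference was -0.83 ± 0.13 (SE), or 1.78-fold lower in KO (limma adjusted p = 0.0115). Like Prkar1a, none of the 7 other protein kinase A subunits and inhibitors measured passed by limma (2 at an unadjusted p below 0.05, against 14.9% of all genes). Pkib, an inhibitor with both means below the median of all probe sets, differed by 0.28 (limma adjusted p = 0.196). Prkacb, a catalytic subunit, differed by -0.26 (limma adjusted p = 0.28). Pkib passed without KO array 2 (limma adjusted p = 0.0476). By limma none passed, and 0 had an unadjusted p below 0.05, of 10 A-kinase anchoring proteins (Akap7 differed by -0.20 and Akap10 by 0.13) or of 5 other effectors (Bves 0.11, Popdc3 0.098, both below the median of all probe sets). Of 14 genes that CREB is known to induce, 0 passed by limma over all genes (2 at an unadjusted p below 0.05, against 14.9% of all genes), and their median difference was 0.094. The orphan receptor genes Nr4a2 (difference -0.36, limma adjusted p = 0.28) and Nr4a1 (0.25, limma adjusted p = 0.285) had the smallest p and opposite signs.

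**Figure D4:**
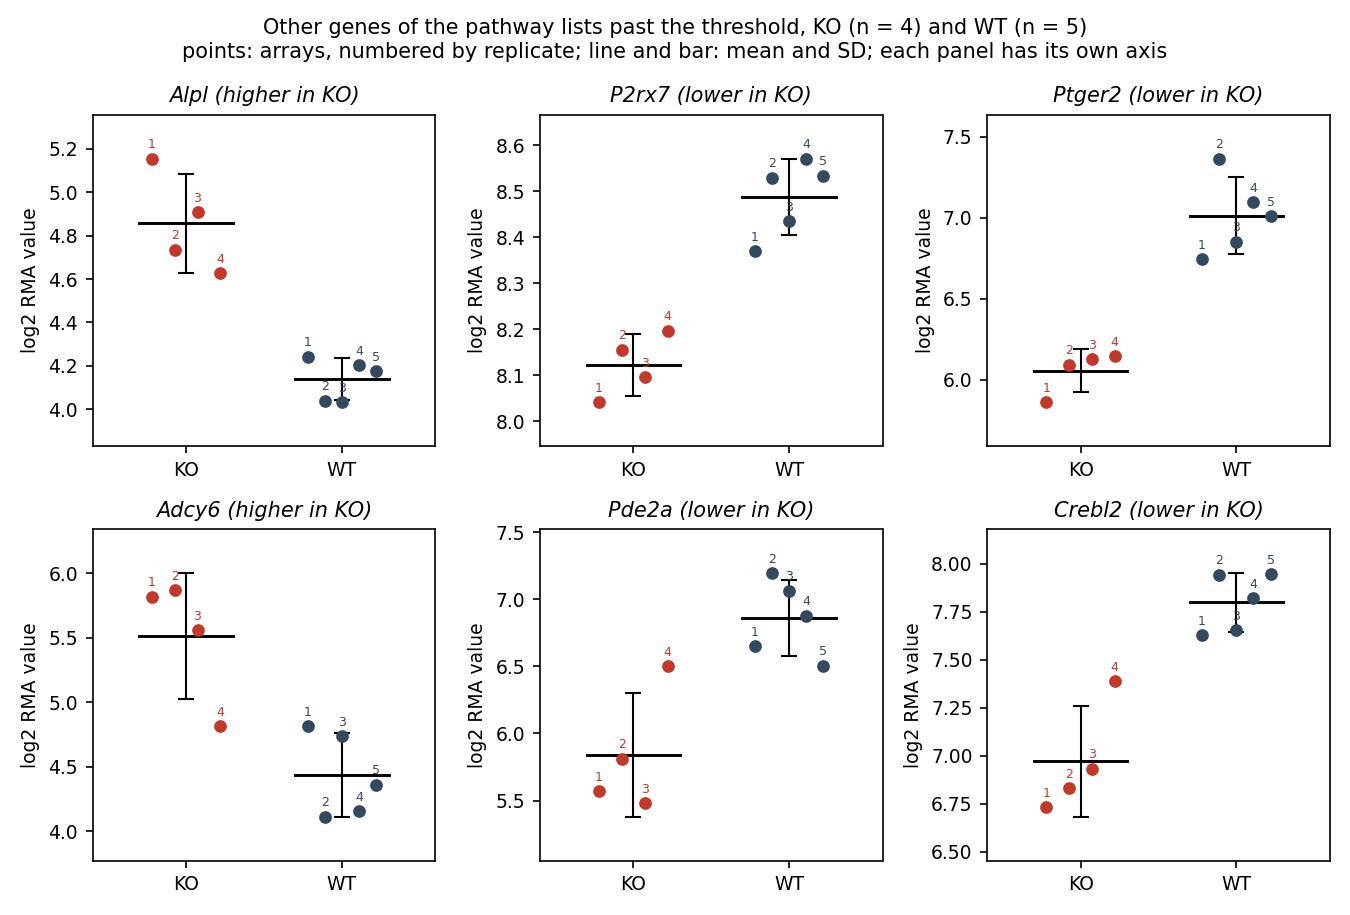
Deposited log2 RMA values of the 6 other pathway genes past the threshold, KO arrays (n = 4, red) left and WT arrays (n = 5, dark) right, each panel with its own axis. Points are arrays with their replicate number, the line is the mean and the bar the SD. KO array 4 is the KO array closest to the WT mean in each of the 6 panels.

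The KO arrays did not depart from WT equally. KO array 4 was the KO array closest to the WT mean for Nt5e, Entpd1 and each of the 6 other pathway genes past the threshold, and KO array 3 was closest for Pde3b. Over all 515 genes past the threshold, KO array 4 was closest for 36.9% and KO array 2 for 31.8%. Markers of other cells were read in the same arrays. The mean level of 9 B cell markers ranged from 4.46 to 5.20 in KO and from 4.24 to 4.97 in WT arrays, and that of 11 myeloid markers from 4.63 to 5.04 in KO and from 4.33 to 4.68 in WT arrays. KO array 4 held the highest value of both lists, none of whose genes passed by limma (1 B cell and 4 myeloid markers had an unadjusted p below 0.05, against 14.9% of all genes; smallest p for Cd79a, difference 0.61, limma adjusted p = 0.184, and Cd68, 0.59, limma adjusted p = 0.16). Mean levels of CD8 T cell, NK cell, and erythroid and platelet markers overlapped between groups and none passed by limma. At an unadjusted limma p below 0.05 were 3 of 5, 0 of 5 and 0 of 3 of them, against 14.9% of all genes. The smallest p belonged to Cd8b1 (difference 0.55), Eomes (0.21) and Ppbp (0.13). Within the CD8 T cell list signs differed, and Gzmb, which encodes granzyme B and was picked out after its values were seen, differed by -1.04 (limma adjusted p = 0.166). The part of these cells in the results was not tested.

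Among markers of naive conventional CD4 T cells, 2 of 10 measured were higher in KO cells, where 0.428% of all genes were. By limma 8 of the 10 had an unadjusted p below 0.05, against 14.9% of all genes. The mean level of the 10 ranged from 7.96 to 8.21 in KO and from 7.30 to 7.66 in WT arrays, without overlap. The 2 that passed were Dapl1 (difference 1.68, a size that is uncertain because the WT mean lies under the median of all probe sets) and Igfbp4 (difference 0.60). The groups did not overlap for 6, all higher in KO, against 1.76% of all genes higher in this way. The median difference of the list was 0.59, and Il7r, named after its values were seen, differed by -0.22 (limma adjusted p = 0.734). Each of the 2 calls ended without 1 of several arrays (Dapl1 without KO array 1 or any WT array, limma adjusted p from 0.0504 to 0.0682, and Igfbp4 without KO array 1, 2 or 4 or WT array 2, 3, 4 or 5, limma adjusted p from 0.0502 to 0.0769). Foxp3 was at the same level in both groups within its interval (difference from -0.13 to 0.15). The cells were sorted on CD4 and Foxp3-driven YFP, and the purity of that sort was not tested. Naive conventional cells and resting Treg cells express many of the same genes and were not told apart here, and their part in the higher Pde3b and lower Nt5e and Entpd1 was not tested.

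Genes with profiles nearest to the 3 changed members were found by the root mean square difference over the 9 arrays of log2 values centred on each gene's mean, among 19341 genes. Nearest to Nt5e were Gucy1a1, a subunit of soluble guanylyl cyclase (0.090 log2 units), Crebl2 (0.092) and the tyrosine phosphatase gene Ptpn13 (0.127). Gucy1a1 averaged 5.52 in KO and 6.56 in WT samples (limma adjusted p = 0.00579). Ptpn13 differed by -0.79 (limma adjusted p = 0.0238), a call that ended without any 1 of KO arrays 1 and 3 and the WT arrays (limma adjusted p from 0.0506 to 0.0742). Nearest to Entpd1 were Hdgfl3 (0.089), the adhesion receptor gene Cd44 (0.120) and Ei24 (0.121). They differed by -0.90, -0.67 and -0.87, and the Cd44 call ended without KO array 1 or WT array 1 (limma adjusted p from 0.0508 to 0.0582). Nearest to Pde3b, at a greater distance, were Scmh1 (0.287), Myb (0.302) and Kcnmb4 (0.358), which differed by 1.51, 1.29 and 1.27. Second probe sets of Myb (1.52, limma adjusted p = 0.0521) and Kcnmb4 (0.44, limma adjusted p = 0.308) did not pass over all probe sets. All these nearest genes were picked for likeness to members that differed between the groups. Their own differences and calls follow largely from that choice and are not separate evidence. Their values are alike over 9 arrays in 2 groups, which says nothing of shared control.

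**Figure D5:**
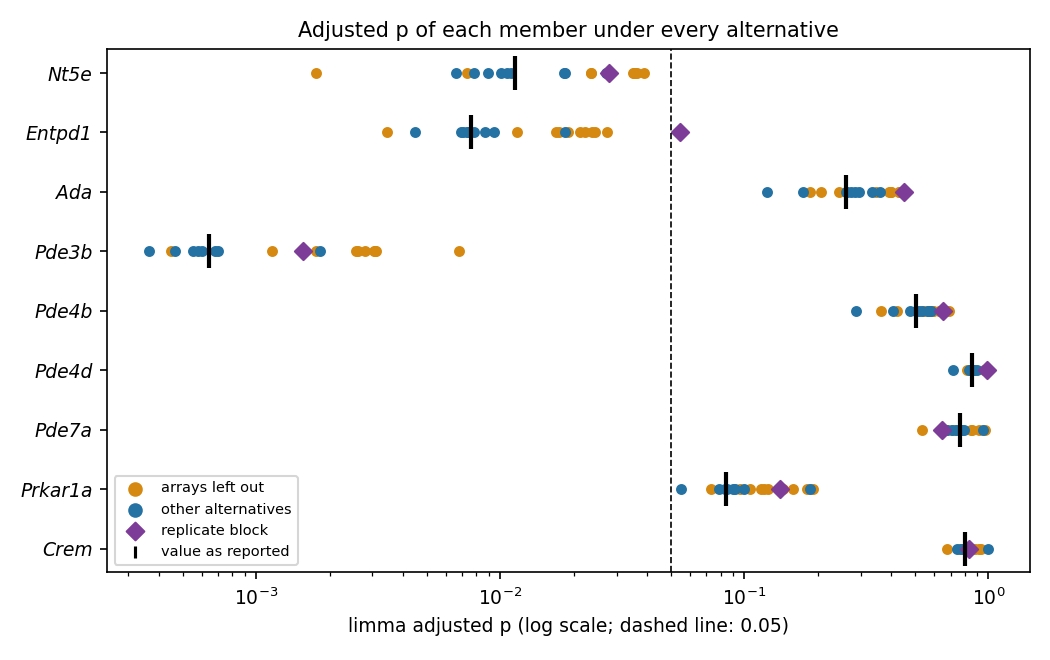
Adjusted p of each measured member (log scale) as reported (black bar) and under each of up to 20 alternative settings, with the threshold of 0.05 dashed. Pde3b and Nt5e stay left of the line in every setting that tested them, Entpd1 in all but the replicate block (0.0544), and Prkar1a stays to its right (lowest 0.0549).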

How the data were processed

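Transcript levels were measured in 9 Treg cell samples with 1 Affymetrix whole-transcript array each, from RNA amplified by NuGEN kits, as the labels' protocols state. The authors deposited log2 RMA values for 41345 probe sets, and per the submitters' processing notes the software was Expression Console 1.1. Probe-level files and detection calls were not used here, so low signal and background could not be separated. Precision is limited by the number of arrays. Array medians lay between 3.99 and 4.08.

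Of the probe sets, 23521 had 1 gene symbol in the platform annotation, and symbols were updated by Entrez identifier for 23328 of them. The probe set with the highest mean stood for a gene (22180 genes). KO was compared with WT by limma 3.58.1 in R 4.3.3 (lmFit, eBayes, Benjamini-Hochberg), without a filter on dim genes, and the code was tested on simulated data. Second probe sets were read from a fit over all probe sets. Python 3.11.15 and pandas 2.3.3 handled tables.

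The members, lists and alternatives were chosen with earlier results of these data known. Named genes are the members, checks, up to 4 passing genes of each other list (or 2 with the smallest p), passing markers (or 1), the 3 nearest profiles of each changed member, and, added after their values were seen, changed neighbours in gene order.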

Additional observations from a re-analysis of the deposited data

Results flagged for a closer look

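A gap test (Dixon's, at 95%) was applied to each group of arrays for the 50 named genes, 100 groups in all, of which 11 held an array far from the rest of its group. Chance alone gives about 1 in 20. Among the members, Pde3b was 5.31 in KO array 1 and from 4.72 to 4.82 in the other KO arrays. Pde4b was 4.89 in WT array 3 and 4.96 in the other WT arrays, Pde4d 3.19 in KO array 2 and 3.26 in the other KO arrays, and Crem 4.76 in KO array 4 and 4.80 in the other KO arrays. In these 3 genes the remaining arrays of the group hold an identical value, so that any departure counts as a gap.

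Other such values were those of Akap10 in KO array 2 (6.38, the others from 6.71 to 6.73), Bves in KO array 1 (3.22, the others from 2.99 to 3.02) and Ei24 in KO array 4 (6.75, the others from 6.19 to 6.24). In WT samples they were Stk4 in array 3 (8.09, the others from 7.84 to 7.88), Cd79a in array 1 (5.97, the others from 5.09 to 5.24), Ppbp in array 2 (4.53, the others from 3.35 to 3.68) and Pdlim1 in array 2 (6.51, the others from 6.87 to 6.99).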

How the results depend on the processing

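Over 20 alternatives, 177 of 178 member values kept their direction and their side of the threshold. Most of these values belong to members that did not pass in any setting. Of the members that passed, Nt5e did so in 20 of 20 alternatives, Entpd1 in 19 of 20 and Pde3b in 19 of 19. Pde3b and Pde4d have no value with the filter on dim genes. The exception was Entpd1 in the fit with the replicate number as a block (difference -0.91, limma adjusted p = 0.0544). The numbers do not show a pairing: deviations of same-numbered KO and WT arrays correlated between -0.115 and 0.042, and 0 of 4 KO arrays correlated best with its own number. With this replicate block 178 genes passed (30 higher, 148 lower), 162 of them among the 515 (95 higher, 420 lower), and 2 of the other pathway genes against 6. In the fit over all probe sets 297 of the genes' probe sets passed (51 higher, 246 lower). After quantile normalisation 170 genes were higher, or 35.7% of the calls against 18.4%. Without KO arrays 2 and 4 together 149 were higher.

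Leaving out each array in turn gave from 271 to 594 genes (from 45 to 122 higher and from 226 to 494 lower) and from 3 to 8 other pathway genes. It gave 3 members each time, with differences from -1.08 to -0.82 for Nt5e, from -0.98 to -0.78 for Entpd1 and from 1.56 to 1.80 for Pde3b. The Foxp3 difference changed sign without KO array 1 (-0.013) or 3 (-0.0063), with a range up to 0.055 without KO array 4, and that of Adora3 without KO arrays 2 and 4 together (-0.017), all far from the threshold. The Alpl difference was 0.48 when its probe sets were averaged. With the mean level of Hspa1a and Hspa1b as a covariate, which was low in 1 KO and 2 WT arrays, Adcy6 (limma adjusted p = 0.0568) and Pde2a (0.0534) did not pass. The cause of these changes was not tested.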

Other observations

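Neighbours in gene order (RefSeq, GRCm38.p6) were read for the measured members, as up to 5 nearest measured genes on either side (10 genes for each member except Crem, which had 6). A changed neighbour was found for 3 of the 9, in each case 1 of the 10 genes read, where 2.32% of all genes passed. Whether this exceeds the share over all genes was not tested. Cep162, near Nt5e, was lower in KO samples (6.59 ± 0.095 in KO and 7.15 ± 0.20 in WT, SD, n = 4 and 5, limma adjusted p = 0.0196), a call that ended without KO array 1 or WT array 4 or 5 (limma adjusted p from 0.0517 to 0.0632). Pdlim1, near Entpd1, was higher (7.60 ± 0.088 in KO and 6.85 ± 0.20 in WT, limma adjusted p = 0.00528), the opposite direction to Entpd1. Serinc3, near Ada, was lower (9.02 ± 0.17 in KO and 9.79 ± 0.16 in WT, limma adjusted p = 0.00475). Ada and the targeted gene Stk4 both lie on chromosome 2, with 6 measured genes between them, 0 of which passed by limma. Serinc3 is not among these 6. These neighbours were named after their values were seen.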
